A study of Homo sapiens with 6 samples.

Results

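The genes examined here encode the DNA replication machinery, a set of 49 genes taken by symbol from the 26485 genes listed in the deposited count table. They comprise 15 licensing factors (the origin recognition complex ORC1 to ORC6, the loaders CDC6 and CDT1, the CDT1 inhibitor GMNN, and the MCM2 to MCM7 helicase), 8 factors of origin firing, 20 elongation factors (polymerases, sliding clamp and clamp loader, RPA, FEN1 and LIG1), MCM8, and 5 E2F transcription factors. They were taken for their function in replication, with earlier results of these data known. RNA came from THP1, a human acute monocytic leukemia cell line grown in culture, after 6 h with DMSO vehicle or withaferin A (WFA), a steroidal lactone of the plant Withania somnifera. Each treatment had 3 libraries, numbered as replicates in the sample labels, and the published methods name 3 independent experiments. The WFA dose is 1 mM in the sample labels and 1 μM in the published methods, and the discrepancy could not be settled from the counts. One cell line was used and all cells of a culture were pooled, so fewer cells in S phase and less of an RNA per cell cannot be told apart from these counts.

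Replication starts in G1, when ORC bound at origins recruits CDC6 and CDT1 to load the MCM helicase onto DNA, a step called licensing. At the entry to S phase the DBF4-CDC7 kinase, together with cyclin-dependent kinases, triggers the joining of CDC45 and GINS to MCM, which turns it into an active helicase, and the polymerases, the clamp PCNA and its loader RFC then copy the DNA. Many of these genes are induced by activating E2F factors as cells pass from G1 into S phase, and E2F7 and E2F8 act as repressors in the same circuit.

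Total counts lay between 11006035 and 13872810 per library. All 49 genes passed the filter on low counts, with between 139 and 8984 reads per gene and library. Together they took 0.543%, 0.489% and 0.495% of the reads in DMSO replicates 1, 2 and 3, and 0.371%, 0.326% and 0.325% in the WFA replicates. All 8 monocytic markers were detected in both groups, with a summed level of 2350 to 2880 CPM with DMSO and 2130 to 2900 CPM with WFA, most of it from LYZ, which did not differ past an edgeR adjusted p of 0.05 (log2 fold change, log2FC, -0.05). Of the other markers of this lineage, CD14, CD33, CSF1R and SPI1 were lower (log2FC -1.22, -0.85, -0.40 and -0.34), CD68 and CEBPB were higher (0.37 and 0.43), and ITGAM did not pass (0.00). The part of these differences in the results was not tested. Of 9 genes listed as markers of other cell types, 6 stayed at or below 3 counts throughout. The summed level of the 9 was 355 to 401 CPM with DMSO and 316 to 335 CPM with WFA. Nearly all of it came from PECAM1 (354, 400 and 387 CPM with DMSO, 315, 324 and 302 CPM with WFA). A sum that rests on 1 gene does not show that other cells were present.

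WFA lowered the RNA of much of the replication machinery. By edgeR's quasi-likelihood test at an adjusted p-value under 0.05, WFA reduced 28 of the 49 genes and raised 1, and 20 did not pass. Among all 12854 genes tested, 24.7% were lower and 25.8% higher by the same rule, against 57.1% lower among the replication genes. The median log2FC (WFA against DMSO) of the 49 genes was -0.35, beside 0.02 for all tested genes. It was -0.34, -0.37 and -0.35 in the pairs of same-numbered libraries. The falls were moderate in size, and MCM3 alone was over 2-fold lower, a change that 5.2% of all tested genes showed. In 30 of the 49 genes each WFA library lay below each DMSO library, or 61.2%, where 28.5% of all tested genes did so. In 1 gene each WFA library lay above each DMSO library, as in 29.6% of all tested genes. When the replicate number entered the model as a block, 31 genes were lower and 1 higher, where 28.8% and 30.2% of all tested genes were. Scaling by total counts instead of TMM, which shifts all genes by -0.08 on the log2 scale, gave 34 lower genes against a background of 30.1%.

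**Figure D1:**
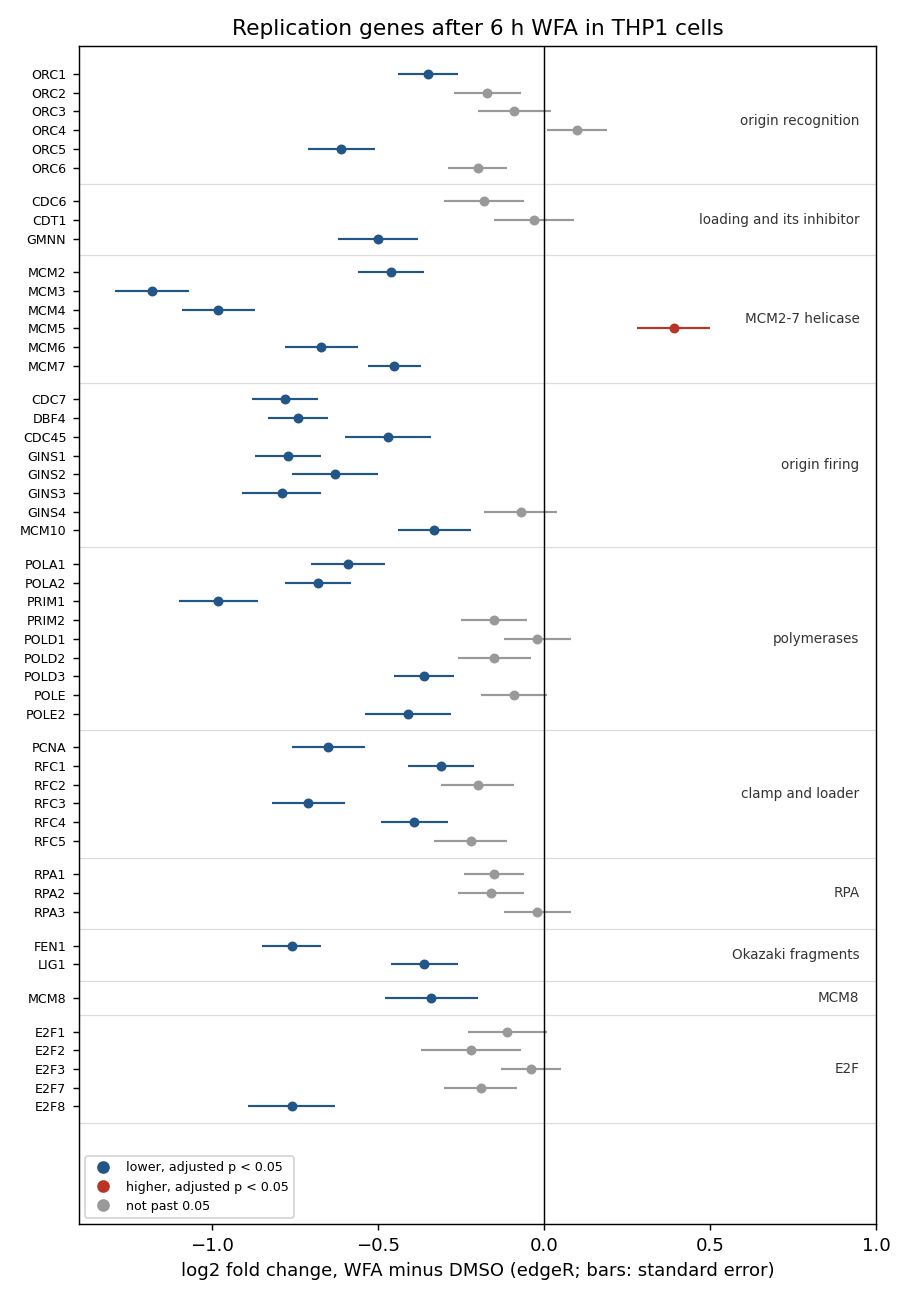
Log2FC of each of the 49 genes (x axis, WFA minus DMSO, edgeR) in rows grouped by role, with bars for the standard error and colour for the call at an adjusted p-value under 0.05. Points lie left of 0 for 47 genes, and MCM5 is the only red point, at 0.39.

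The subunits of the MCM helicase held the largest fall and the single rise, and 5 of the 6 were lower, or 83.3% beside the 24.7% of all tested genes. MCM2 to MCM7 form a ring of different subunits, each present once. MCM3 had 610, 536 and 509 CPM (counts scaled to library size, with TMM factors) with DMSO and 276, 244 and 209 CPM with WFA. The log2FC was -1.18 (standard error, SE, 0.11, edgeR adjusted p = 5.62e-07), a fall of 56% and the largest among the 49 genes. MCM4 had 632, 600 and 556 CPM with DMSO and 351, 304 and 252 CPM with WFA, with a log2FC of -0.98 (SE 0.11, edgeR adjusted p = 4.73e-06). For both genes the highest WFA library was well under the lowest DMSO library. MCM6 had 364, 351 and 327 CPM with DMSO and 257, 199 and 200 CPM with WFA, and its log2FC was -0.67 (SE 0.11, edgeR adjusted p = 9.91e-05). MCM2 and MCM7 fell less, with log2FCs of -0.46 and -0.45 (SE 0.10 and 0.08), and their groups did not overlap either. Each WFA library lay below each DMSO library in 5 of the 6 subunits, or 83.3% beside 28.5% of all tested genes.

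MCM5 rose, and it was the only one of the 49 genes to do so at an edgeR adjusted p-value under 0.05. It had 136, 119 and 92.3 CPM with DMSO and 153, 152 and 150 CPM with WFA. The WFA libraries were almost equal, and each lay above the highest DMSO library, while the DMSO libraries were spread widely. The log2FC was 0.39 (SE 0.11, edgeR adjusted p = 0.0106). Without DMSO replicate 3, the lowest of the controls, it was 0.25 with an edgeR adjusted p of 0.0476, and scaling by total counts gave 0.31.

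The share that each subunit takes of the reads on all MCM2 to MCM7 genes does not depend on scaling between libraries. MCM5 took 6.15%, 5.88% and 4.92% of these reads with DMSO and 11.2%, 12.6% and 13.5% with WFA. MCM3 took 27.6%, 26.5% and 27.1% with DMSO and 20.2%, 20.2% and 18.9% with WFA. Thus there were 0.223, 0.222 and 0.181 MCM5 reads per MCM3 read in the control libraries, and 0.555, 0.623 and 0.716 with WFA. Per kilobase of exon, the subunit levels spanned 32.8 ± 6.23 (MCM5) to 172 ± 16.3 (MCM3) CPM per kb with DMSO, and 40.4 ± 3.24 (MCM2) to 75.6 ± 10.4 (MCM3) CPM per kb with WFA (SD, n = 3). MCM5 was the lowest of the 6 per kilobase with DMSO. With WFA, the levels per kilobase of MCM2, MCM5 and MCM7 (40.4 ± 3.24, 42.9 ± 0.432 and 45.1 ± 1.74 CPM per kb, SD, n = 3) lay within a few units of each other. These ratios, and those between partner subunits given further on, were picked after the counts were seen and carry no test.

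**Figure D2:**
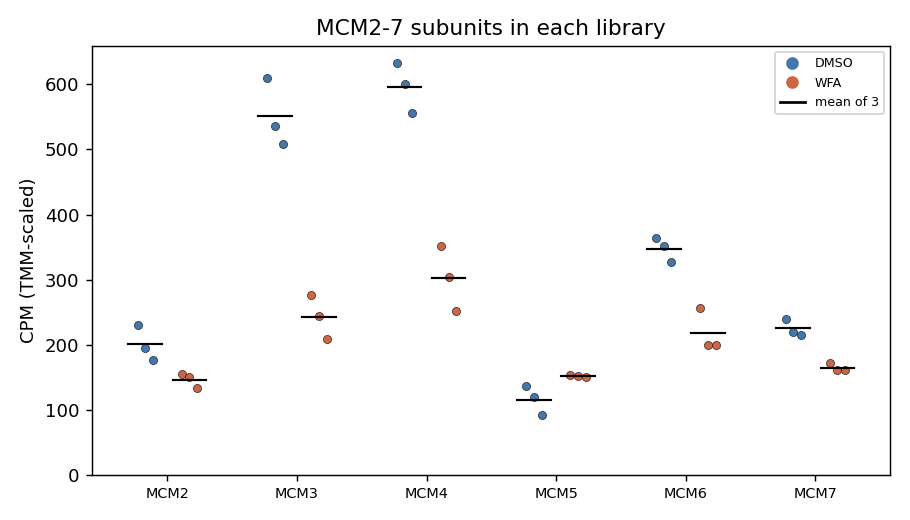
TMM-scaled CPM (y axis) of the 6 subunits of the MCM helicase in each of the 3 DMSO (blue) and 3 WFA (orange) libraries, with the mean as a line. MCM3 and MCM4 fall from 509 CPM or more to 351 CPM or less, whereas the WFA libraries of MCM5 sit at 150 to 153 CPM, above all its DMSO libraries.

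The median log2FC was -0.18 for both the ORC genes and the loading group (CDC6, CDT1 and the inhibitor GMNN), against -0.56 for the helicase. Of the 6 ORC genes, ORC1 and ORC5 were lower and 4 did not pass the test, a lower share of 33.3% beside the 24.7% of all tested genes. In 4 of the 6, ORC1, ORC2, ORC5 and ORC6, each WFA library lay below each DMSO library. That share of 66.7% was well above the 28.5% of all tested genes. ORC5 had 42.5, 42.7 and 41.3 CPM with DMSO and 28.8, 28.1 and 25.9 CPM with WFA, with little spread in either group. The log2FC was -0.61 (SE 0.10, edgeR adjusted p = 0.000113). ORC1, the subunit whose abundance varies with the cell cycle, had 73.5, 71.5 and 65.7 CPM with DMSO and 58.1, 50.4 and 57.5 CPM with WFA. This gave a log2FC of -0.35 (SE 0.09, edgeR adjusted p = 0.0062). ORC3 had 102, 91.9 and 92.1 CPM with DMSO and 107, 80.8 and 81.2 CPM with WFA, and the groups overlapped. Its log2FC of -0.09 had a 95% interval from -0.32 to 0.14. ORC2, ORC4 and ORC6 had log2FCs of -0.17, 0.10 and -0.20, none past the threshold, and ORC2 and ORC6 passed it when scaled by total counts (edgeR adjusted p = 0.0435 and 0.0214).

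Of the 3 genes of the loading group, only the inhibitor geminin (GMNN) passed the test, a lower share of 33.3%, and neither loader did. GMNN, which binds CDT1 and blocks repeated licensing, had 30.7, 26.8 and 28.8 CPM with DMSO and 22.4, 20.8 and 17.7 CPM with WFA. This gave a log2FC of -0.50 (SE 0.12, edgeR adjusted p = 0.00274). CDT1 had 51.2, 44.2 and 35.5 CPM with DMSO and 45.1, 41.2 and 42.2 CPM with WFA, so that the WFA libraries lay inside the range of the controls. For CDT1 the log2FC was -0.03, with a 95% interval from -0.29 to 0.23. CDC6, the ATPase that works with ORC in loading, had overlapping groups and a log2FC of -0.18 (95% interval -0.44 to 0.07, edgeR adjusted p = 0.217). With the replicate number as a block, CDC6 passed the threshold at a log2FC of -0.19 (edgeR adjusted p = 0.0421). GMNN reads per CDT1 read were 0.599, 0.607 and 0.812 with DMSO and 0.496, 0.504 and 0.419 with WFA.

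Origin firing was the class with the largest share of lower genes. Of its 8 genes 7 were lower, or 87.5% beside the 24.7% of all tested genes, and the median log2FC was -0.68. GINS3 had 29.3, 32.1 and 29.1 CPM with DMSO and 19.3, 15.3 and 17.8 CPM with WFA (log2FC -0.79, SE 0.12, edgeR adjusted p = 6.75e-05). GINS1 had 78.4, 65.5 and 78 CPM with DMSO and 44.6, 42 and 43.3 CPM with WFA (log2FC -0.77, SE 0.10, edgeR adjusted p = 1.09e-05). GINS2 was lower too, at a log2FC of -0.63. The fourth subunit of this complex, GINS4, was the exception. It had 96.4, 81.6 and 83.5 CPM with DMSO and 95, 73.1 and 80.8 CPM with WFA, with overlapping groups. Its log2FC was -0.07 (95% interval -0.30 to 0.15). There were 0.813, 0.803 and 0.934 GINS1 reads per GINS4 read in the controls and 0.469, 0.574 and 0.536 with WFA.

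Both parts of the kinase that triggers firing fell by a similar amount. CDC7, the catalytic subunit, had 85, 86.7 and 88.9 CPM with DMSO and 56.5, 51.5 and 44 CPM with WFA (log2FC -0.78, SE 0.10, edgeR adjusted p = 1.21e-05). DBF4, its activating partner, had a log2FC of -0.74 (SE 0.09, edgeR adjusted p = 1.23e-05). CDC45, which joins the helicase with GINS, had a log2FC of -0.47 (edgeR adjusted p = 0.00605). MCM10, which acts when the helicase is activated, had one of -0.33 (edgeR adjusted p = 0.0239), and this call was lost without DMSO replicate 1, where the value was -0.21 (edgeR adjusted p = 0.158), as well as without WFA replicate 2 or 3 (-0.28 and -0.31).

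Among the polymerases, subunits of polymerase α-primase fell and the large subunits of the polymerases δ and ε did not pass the test. Polymerase α-primase starts each new strand with an RNA primer and a short stretch of DNA. PRIM1, the catalytic primase subunit, had 69.8, 65.7 and 64.5 CPM with DMSO and 40.5, 31.2 and 29.5 CPM with WFA, a fall of 49.3%. The log2FC of PRIM1 was -0.98 (SE 0.12, edgeR adjusted p = 5.81e-06), the same as that of MCM4. POLA2 had 69.5, 60.4 and 61.2 CPM with DMSO and 42.2, 38.8 and 38.1 CPM with WFA (log2FC -0.68, SE 0.10, edgeR adjusted p = 3.49e-05). POLA1, the catalytic subunit of polymerase α, had 82.3, 63.9 and 76.8 CPM with DMSO and 55.2, 43.7 and 48.9 CPM with WFA (log2FC -0.59, SE 0.11, edgeR adjusted p = 0.000475). In all 3 genes, named for their large changes, the groups were separate. Of the 9 polymerase genes, 5 had each WFA library below each DMSO library, or 55.6% beside 28.5% of all tested genes. PRIM2, the regulatory primase subunit, had overlapping groups and a log2FC of -0.15 (95% interval -0.36 to 0.06). It passed the threshold without WFA replicate 1 (-0.25, edgeR adjusted p = 0.0494), and its values with each library left out ran from -0.25 to -0.09. PRIM1 reads per PRIM2 read were 1.03, 1.04 and 1.04 in the controls, a narrow range, and 0.618, 0.586 and 0.535 with WFA.

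The catalytic subunits of the polymerases that extend the strands had log2FCs near 0. POLD1, of the lagging-strand polymerase δ, had 58.7, 49 and 49 CPM with DMSO and 47.2, 54.1 and 53.3 CPM with WFA. Its groups overlapped, and its log2FC of -0.02 had a 95% interval from -0.24 to 0.20. POLE, of the leading-strand polymerase ε, had a log2FC of -0.09 (95% interval -0.30 to 0.12). POLD2 did not pass either, at -0.15. The accessory subunits POLD3 and POLE2 were lower, with log2FCs of -0.36 and -0.41 (edgeR adjusted p = 0.00273 and 0.0183). POLE2 reads per POLE read were 0.194, 0.163 and 0.138 with DMSO and 0.153, 0.123 and 0.118 with WFA, so these ranges overlapped. The call for POLE2, the one of the 49 genes with the fewest reads, was lost without DMSO replicate 1 (log2FC -0.35, edgeR adjusted p = 0.0791) and without WFA replicate 2 (-0.34, edgeR adjusted p = 0.0727).

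PCNA, the ring that tethers polymerases to DNA, had 146, 127 and 124 CPM with DMSO and 101, 78 and 73 CPM with WFA. The log2FC of PCNA was -0.65 (SE 0.11, edgeR adjusted p = 0.000238). Of the RFC subunits that open and close the ring, RFC3 had 79.4, 66.7 and 81.5 CPM with DMSO and 50.7, 48.8 and 39.2 CPM with WFA (log2FC -0.71, SE 0.11, edgeR adjusted p = 9.5e-05). Neither gene had overlapping groups. Of the 6 clamp and loader genes, 4 had each WFA library below each DMSO library, or 66.7% beside 28.5% of all tested genes. RFC4 had 85.5, 88.7 and 82.6 CPM with DMSO and 76.1, 58.9 and 60.4 CPM with WFA (log2FC -0.39, SE 0.10, edgeR adjusted p = 0.00497). RFC1, the large subunit, had a log2FC of -0.31 (edgeR adjusted p = 0.015), and it was no longer past the threshold without DMSO replicate 1 (-0.29, edgeR adjusted p = 0.0555) or without WFA replicate 2 (-0.22, edgeR adjusted p = 0.0803). RFC2 had 76.7, 66.7 and 61.7 CPM with DMSO and 66.4, 53.5 and 59.3 CPM with WFA, and the groups overlapped. RFC2 and RFC5 had log2FCs of -0.20 and -0.22, short of the threshold without the replicate block and past it with the block (edgeR adjusted p = 0.0487 and 0.0267). RFC5 also passed it without DMSO replicate 2 (-0.30, edgeR adjusted p = 0.0485) or WFA replicate 1 (-0.33, edgeR adjusted p = 0.02).

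The RPA genes, whose products coat single-stranded DNA, did not pass the test. RPA3 had 36.8, 40.6 and 36.2 CPM with DMSO and 39.8, 36.6 and 35.7 CPM with WFA, which is nearly the same range. The log2FCs of RPA1, RPA2 and RPA3 were -0.15, -0.16 and -0.02, with 95% intervals of -0.34 to 0.03, -0.38 to 0.05 and -0.23 to 0.20. Scaled by total counts, RPA1 and RPA2 passed the threshold at -0.24 and -0.25 (edgeR adjusted p = 0.0325 and 0.0454). Both enzymes that finish lagging-strand fragments were lower. FEN1, the nuclease that removes primer flaps, had 139, 128 and 123 CPM with DMSO and 81.7, 72.7 and 76.4 CPM with WFA (log2FC -0.76, SE 0.09, edgeR adjusted p = 4.77e-06). LIG1, the ligase that seals the nicks, had 60.6, 51.7 and 59.2 CPM with DMSO and 45.9, 40.5 and 47 CPM with WFA (log2FC -0.36, SE 0.10, edgeR adjusted p = 0.00719). The fall of FEN1 left the groups further apart than that of LIG1.

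MCM8, a relative of the helicase subunits that works in recombination repair, had 43.1, 30.4 and 40.1 CPM with DMSO and 33.8, 26.1 and 29.7 CPM with WFA. Its groups overlapped, and it was the weakest of the calls, with a log2FC of -0.34 (SE 0.14, edgeR adjusted p = 0.0474). The call was lost without DMSO replicate 1 or 3 and without WFA replicate 2 or 3, where the values were -0.24, -0.30, -0.25 and -0.34.

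**Figure D3:**
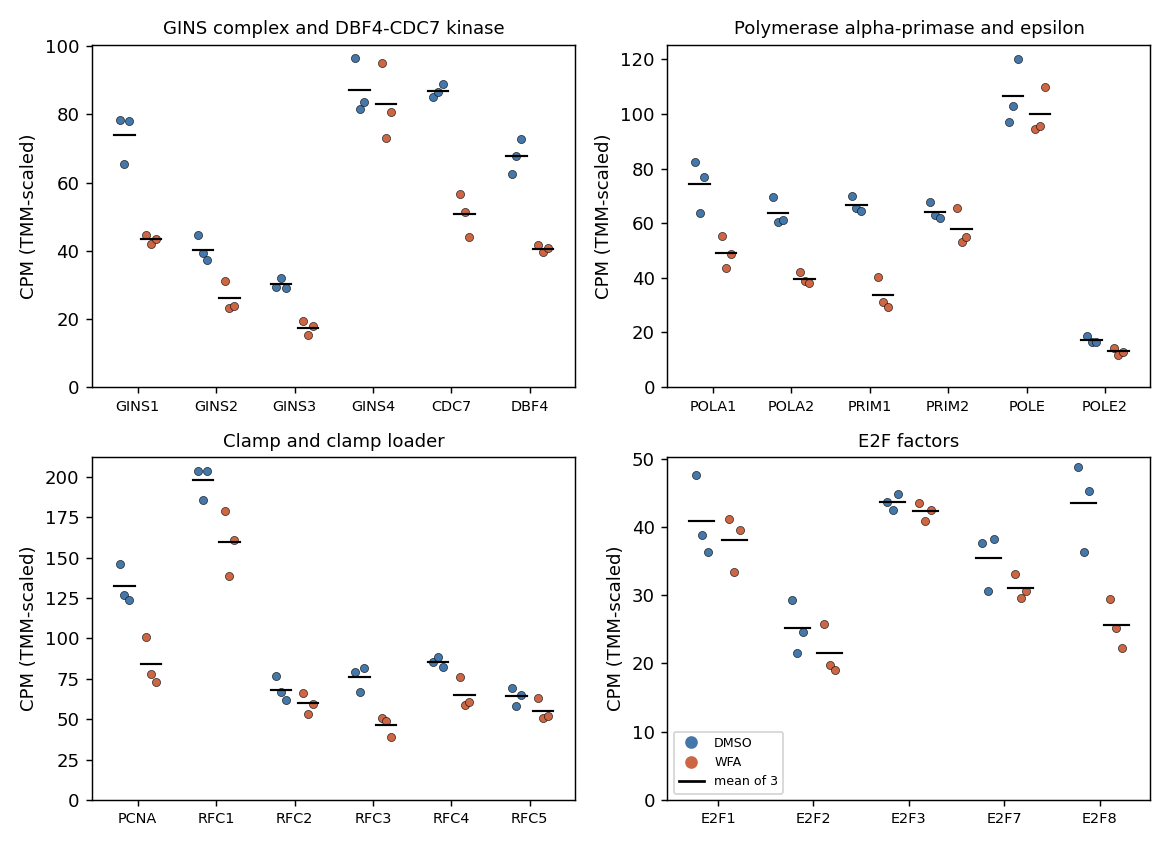
TMM-scaled CPM (y axes, from 0) in each of 3 DMSO (blue) and 3 WFA (orange) libraries, with means as lines, for GINS and the firing kinase, polymerase α-primase and ε, the clamp and its loader, and the E2F factors. GINS4, PRIM2, POLE, RFC2 and RFC5 overlap between groups beside partners that are separate, which is not a test of the difference between partners. E2F8 is the only separate gene of the 5 E2F genes shown.

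Of the 5 E2F factors in the set, 4 did not pass the test. E2F4, E2F5 and E2F6 lie outside the set and are given further on. E2F8, a repressor and itself induced by E2F, was the one of these 5 that fell, a share of 20% of the 5 genes, which is near the 24.7% of all tested genes. It had 48.7, 36.3 and 45.3 CPM with DMSO and 29.4, 25.2 and 22.2 CPM with WFA, and its log2FC was -0.76 (SE 0.13, edgeR adjusted p = 0.000207). E2F7, the related repressor, had 37.7, 30.6 and 38.2 CPM with DMSO and 33.1, 29.6 and 30.6 CPM with WFA, and the groups overlapped. Its log2FC was -0.19 (95% interval -0.43 to 0.05). Whether E2F7 and E2F8 differ was not tested.

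The activators showed no change that passed the threshold. E2F1 had 47.6, 38.8 and 36.3 CPM with DMSO and 41.2, 33.4 and 39.6 CPM with WFA, a log2FC of -0.11 (95% interval -0.36 to 0.15). E2F2 had 29.3, 21.5 and 24.6 CPM with DMSO and 25.7, 19.7 and 19.1 CPM with WFA, a log2FC of -0.22 (95% interval -0.54 to 0.09). E2F3 had 43.6, 42.4 and 44.8 CPM with DMSO and 43.5, 40.9 and 42.5 CPM with WFA, a log2FC of -0.04 (95% interval -0.24 to 0.15). All 3 had overlapping groups, and E2F3 varied least between libraries.

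Licensing factors were then set against elongation factors. Of the 15 licensing genes 8 were lower and 1 was higher (53.3% lower), and of the 20 elongation genes 11 were lower and 0 higher (55% lower), both with the 24.7% of all tested genes as background. All 20 elongation genes had a log2FC below 0, although those of POLD1, POLE and RPA3 reached 0.00 or more with a library left out. The number of them that were higher was also 0 with DESeq2 and with an unadjusted edgeR p-value under 0.05. The median log2FC was -0.35 for licensing and -0.34 for elongation, a difference of -0.01. Within the pairs of replicates 1, 2 and 3 the difference was -0.05, 0.01 and 0.11, so it had no stable sign. The spread within each class was far wider than the gap between their medians, from -1.18 to 0.39 for licensing and from -0.98 to -0.02 for elongation. The firing class lay lower in every pair, with medians of -0.55, -0.73 and -0.68, against -0.29, -0.38 and -0.34 for elongation.

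Summed reads, in which abundant genes weigh more, differed between the classes. Licensing genes had 1.54, 1.56 and 1.42 reads per read on elongation genes with DMSO and 1.31, 1.3 and 1.2 with WFA, with no overlap. When MCM2 to MCM7 were left out, the ratio was 0.303, 0.313 and 0.29 with DMSO and 0.345, 0.33 and 0.34 with WFA, so that it lay higher with WFA. These sums are descriptions of the libraries, and no test was made over them.

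**Figure D4:**
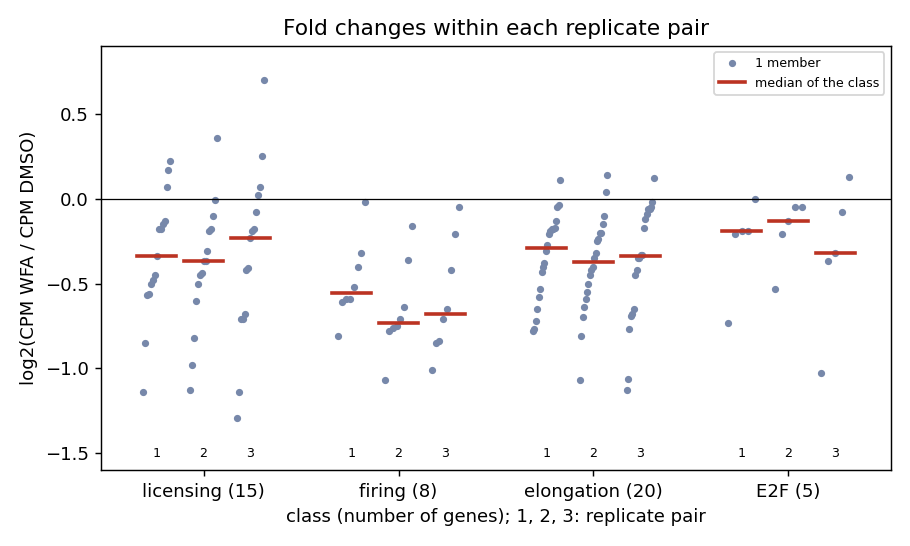
Log2 ratio of CPM with WFA to CPM with DMSO (y axis) for each gene in the 3 replicate pairs (numbered columns), in classes of 15 licensing, 8 firing, 20 elongation and 5 E2F genes, with class medians as red lines. Medians of licensing and elongation lie side by side between -0.38 and -0.23, and those of firing lie lower, from -0.73 to -0.55.

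The promoters of these genes were examined because many of them are known targets of E2F. RefSeq promoter windows (GRCh38.p14), each running from 250 bases before to 50 bases after a start site, were matched by symbol for 42 of the 49 genes. No window was matched for MCM4, MCM5, GINS4, POLD3, RPA2, RPA3 and E2F8, so MCM5, the only higher gene, is not covered. The E2F site was searched on both strands as the words TTTCCCGC, TTTGGCGC, TTTCGCGC and TTTGCCGC, which can overlap each other where both strands match. At least 1 word stood in a window of 23 of the 42 genes, or 54.8%, where 3.31% of all 35116 windows and 3.99% of all genes in the table have one. The words were present in 16 of the 25 matched genes that were lower with WFA and in 7 of the 17 that did not pass. Stretches before the start site are shown for genes that fell and for genes that did not pass, because the same words occur in both. The words are in capitals and the strand given is the one printed, 5′ to 3′.
MCM6, lower, chr2:135876502-135876615, minus strand: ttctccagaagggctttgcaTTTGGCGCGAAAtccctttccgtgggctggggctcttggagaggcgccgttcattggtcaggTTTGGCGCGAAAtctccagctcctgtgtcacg
MCM3, lower, chr6:52284889-52284936, minus strand: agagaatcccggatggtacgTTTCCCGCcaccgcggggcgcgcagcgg
CDC7, lower, chr1:91501024-91501105, plus strand: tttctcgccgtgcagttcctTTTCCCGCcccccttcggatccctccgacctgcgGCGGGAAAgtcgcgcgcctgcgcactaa
PCNA, lower, chr20:5126654-5126701, minus strand: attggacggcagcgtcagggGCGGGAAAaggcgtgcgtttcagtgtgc
RFC3, lower, chr13:33818074-33818121, plus strand: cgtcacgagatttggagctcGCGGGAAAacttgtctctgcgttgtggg
CDT1, not past the threshold, chr16:88803734-88803781, plus strand: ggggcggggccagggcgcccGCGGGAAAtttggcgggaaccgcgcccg
E2F1, not past the threshold, chr20:33686386-33686438, minus strand: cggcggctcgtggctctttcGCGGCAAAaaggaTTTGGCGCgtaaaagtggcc
POLE, not past the threshold, chr12:132687343-132687380, minus strand: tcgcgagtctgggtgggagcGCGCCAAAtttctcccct

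In the MCM6 promoter the pair of longer capital runs each hold a word on both strands, which overlap by their middle bases. Of the genes shown, CDC7, PCNA, RFC3 and CDT1 hold the word GCGGGAAA as printed, and their log2FCs were -0.78, -0.65, -0.71 and -0.03. MCM3 holds the same word on the other strand (log2FC -1.18). Genes not shown hold it too, among them MCM7 and GINS2, which were lower, and ORC3 and E2F3, which did not pass. A match in these letters is a description and does not show that a factor binds there.

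A further 43 genes outside the 49 were listed by role, and all were tested. They hold replication genes and 13 E2F partners and further E2F factors, whose shares are also given apart below. Of all 43 genes, 21 were lower, 5 were higher and 17 did not pass, with a median log2FC of -0.24. These are 48.8% lower and 11.6% higher, beside 24.7% and 25.8% of all tested genes. With the replicate number as a block, 24 were lower and 8 higher (28.8% and 30.2% of all tested genes were), the 3 further higher genes being LRWD1, POLD4 and TFDP2. Among 13 genes of initiation and fork protection, 8 were lower and 0 higher, or 61.5% lower beside the 24.7% of all tested genes. DESeq2 also gave 0 higher, and 1, LRWD1 (log2FC 0.32), was higher at an unadjusted edgeR p-value under 0.05. DSCC1, of an alternative clamp loader that serves sister chromatid cohesion, had the smallest p-value, with a log2FC of -1.24 (SE 0.13, edgeR adjusted p = 2.53e-06). DNA2, a nuclease and helicase of lagging-strand processing, had one of -1.04, RNASEH2B, a subunit of the ribonuclease that removes RNA from DNA, one of -0.78, and POLE3, a small subunit of polymerase ε, one of -0.67. The highest libraries with WFA were 23 CPM for DSCC1 and 14.2 CPM for DNA2, and the lowest control libraries were 41.2 and 26 CPM.

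The 5 higher genes were RNASEH2C (log2FC 0.39), ASF1A, LIN52, E2F6 and LIN37. ASF1A, a histone chaperone, had 67.5, 71 and 68.7 CPM with DMSO and 128, 108 and 115 CPM with WFA (log2FC 0.76, SE 0.09, edgeR adjusted p = 5.25e-06). Its paralog ASF1B had a log2FC of -0.14 that did not pass. E2F6, a repressor without a pocket-protein binding domain, had a log2FC of 0.42, and LIN52 and LIN37, subunits of the MuvB complex that acts with pocket proteins, had 0.48 and 0.65 (edgeR adjusted p = 0.00673, 0.0052 and 0.00783). Among 13 E2F partners and further E2F factors, 5 were lower and 3 higher, with a median log2FC of -0.09. These shares of 38.5% and 23.1% lie near the 24.7% and 25.8% of all tested genes. The 5 lower were E2F5, E2F4, RB1, RBL1 and TFDP1. E2F5, a pocket-protein binding factor, had 4.85, 5.76 and 6.75 CPM with DMSO and 0.98, 2.17 and 2.23 CPM with WFA. Its log2FC of -1.69 (edgeR adjusted p = 0.000129) was the largest fall of the 43 genes. E2F4, also such a factor, had -0.40 (edgeR adjusted p = 0.00547). The pocket proteins RB1 and RBL1 had -0.68 and -0.47 (edgeR adjusted p = 3.21e-05 and 0.00236), while RBL2 did not pass (-0.09). TFDP1 had -0.29 (edgeR adjusted p = 0.0103).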

How the data were processed

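Reads were counted per gene by the authors, who deposited whole-number counts without normalization for 6 libraries of total RNA made with Illumina TruSeq RNA v2. The submitters' processing notes name hg38, bcl2fastq 2.19, Trimmomatic, Bowtie2, Picard, featureCounts and DESeq2. The annotation, strand setting and handling of multiply mapped reads are not given in the sources used here. With GENCODE 29 exons, 9 of the 49 genes shared bases with another listed gene, none over 10% of their exon length. Overlaps with GENCODE genes absent from the deposited table were larger. On the same strand they reached 53.7% for POLA2, 26% for PRIM1 and 12.1% for POLD1. On the opposite strand they reached 30.7% for MCM2, 21.2% for GINS4 and 16.5% for GINS3. Their part in the counts was not tested. The deposited table also holds scaled counts and the authors' own fold changes and p-values, which were not used.

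Counts were analysed with edgeR 4.0.16 in R 4.3.3, which fitted quasi-likelihood models to the 12854 genes that passed filterByExpr (minimum count 10), with TMM scaling, with Benjamini-Hochberg adjustment and a threshold of 0.05. CPM uses TMM-scaled library sizes, intervals are 95%, and levels per kb use the exon union of GENCODE 29. Alternatives were RLE, upper-quartile and total-count scaling, no filter, DESeq2 1.42.0, a replicate block and leaving out each library. Same-numbered libraries share a replicate number in the sample labels and a string of digits in the column names. That they came from the same experiment is inferred from this. Deviations of same-numbered libraries from their group means correlated at 0.22, 0.33 and 0.25. Libraries of a group differed by more than sampling noise. With 3 libraries against 3, exact permutation p-values start at 0.1. Libraries held 11006035 to 13872810 reads, which limits the precision of low counts.

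The genes and lists were chosen with earlier results of these data known. By rule, values in each library are given per role for up to 3 genes with the largest called change, up to 2 called against the median and the one nearest 0, for all E2F genes, and of the other genes up to 4 per direction with the smallest p-value are named. RNASEH2C, ASF1B, E2F4, E2F5, RB1, RBL1, RBL2, TFDP1 and genes with a fold change alone are named beyond it, after their values were seen.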

Additional observations from a re-analysis of the deposited data

How the results depend on the processing

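The number of lower genes was 28 with RLE or upper-quartile scaling, with no filter on low counts and with DESeq2, and all 28 were those of the reported fit. It was 34 with total counts in place of TMM (with ORC2, ORC6, RFC2, RFC5, RPA1 and RPA2 added), 31 with the replicate block, and 24 to 30 with each library left out in turn. MCM5 stayed the 1 higher gene in all of these. The replicate block gave median log2 fold changes of -0.35 for licensing and -0.34 for elongation, a difference of -0.01, and added the calls of CDC6, RFC2 and RFC5, with no other call among the 49 genes changed. With total counts both medians moved, to -0.43 for licensing and -0.42 for elongation. With each library left out, licensing ranged from -0.39 to -0.28, elongation from -0.39 to -0.27, and their difference from -0.08 to 0.03, so its sign turned. The signs of CDT1 (-0.16 to 0.10), GINS4 (-0.18 to 0.01), POLD1 (-0.08 to 0.07), E2F1 (-0.19 to 0.02), RPA3 (-0.06 to 0.02) and POLE (-0.16 to 0.00) also turned with a library left out, and none of these genes had passed the test. The causes were not tested. With 3 libraries per group, falls as small as those of RPA1 and RFC5 lay on either side of the threshold, depending on the setting.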

Other observations

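Cell cycle genes that are not part of the replication machinery were read beside it. All 6 examined, MKI67, CCNE1, CCNE2, CCNA2, CCNB1 and CDK1, were lower with WFA in edgeR's test, with no overlap between the groups and a median log2 fold change of -0.86. Of all tested genes, 24.7% were lower and 28.5% had each WFA library below each DMSO library. Other cycle genes, named after their values were seen, went both ways. CDC25B and ANLN were higher (log2FC 0.63 and 0.43, edgeR adjusted p = 0.00155 and 0.0011), and CDC25C and CDCA5 had log2FCs of 0.07 and 0.04 that did not pass. CDC25A, CDC20, BUB1B and AURKA were among those that were lower (log2FC -0.60, -0.80, -0.77 and -0.57, edgeR adjusted p = 9.88e-05, 0.000164, 2.35e-05 and 0.000669). These genes follow no rule, so no share is given for them. CCNE1, a cyclin of the passage from G1 into S phase, had 31.7, 33.1 and 32.3 CPM with DMSO and 13.9, 12.7 and 11.7 CPM with WFA, that is log2FC -1.34 (SE 0.12, edgeR adjusted p = 2.91e-07), a larger fall than that of MCM3. MKI67, a marker of cycling cells, fell least of the 6, at -0.52 (edgeR adjusted p = 0.00284).

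Of the genes listed as markers of other cell types, COL1A1 rose from 3 to 10 counts per library with DMSO to 106 to 135 with WFA. Its part in the results above was not tested.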
